A study of Homo sapiens with 12 samples.

Results

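The mRNAs of the mitochondrial ribosomal proteins were followed in 2 squamous carcinoma lines with lowered or raised levels of KLF5, a zinc-finger transcription factor. Members were all gene IDs whose symbol is MRPL or MRPS followed by a number and at most a letter A, B or C. This gave 78 of the 57820 gene IDs, with 76 different symbols, since MRPL30 and MRPS17 are each listed under 2 IDs. By symbol, 48 IDs belong to the large subunit and 30 to the small subunit. Poly(A) RNA had been sequenced from 12 libraries in 5 groups. BICR31 cells, of head and neck squamous cell carcinoma origin, had received siRNA that silences KLF5 (siKLF5, 3 libraries) or the control siNC (3 libraries). In HCC95, a line from a lung squamous cell carcinoma, cells overexpressed KLF5 with the E419Q substitution (2 libraries), KLF5 WT (2 libraries) or carried an empty vector (2 libraries). No source used here gives the siRNA sequence, the vector and its promoter, or when cells were harvested. All 3 HCC95 groups kept their own KLF5 gene, and gene counts do not separate its mRNA from that of the vector.

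Mitochondria translate the few proteins encoded by their own genome, all of them core subunits of the oxidative phosphorylation complexes, on a ribosome of their own. Its RNA comes from mitochondrial DNA, but every one of its proteins is encoded in the nucleus, made in the cytosol and imported. The small subunit binds and decodes mRNA, and the large subunit forms the peptide bond and passes the new chains to the inner membrane. Some of its proteins have bacterial counterparts and the others are specific to mitochondria. Symbols do not always give the subunit: MRPS30 and MRPS18A are built into the large subunit, and MRPS36 is known as a component of the 2-oxoglutarate dehydrogenase complex. Many nuclear genes for mitochondrial proteins are known targets of the factor NRF1 and of GABP, a factor of the ETS family.

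Library totals were 2150775 to 2296187 counts with siKLF5 and 1922356 to 1934365 counts with siNC, the BICR31 totals being estimates recovered from the deposited signal. E419Q libraries held 3074139 to 3364760 counts, WT libraries 3516984 to 3992553 and empty-vector libraries 3455397 to 4643792. A member had a median of 92 to 108 counts in a BICR31 library and 135 to 194 in an HCC95 library, which limits the precision of single members. KLF5 itself averaged 958.7 ± 67.5 units with siKLF5 and 2530 ± 211 units with siNC (SD, n = 3 each), 37.9% of the control by limma. It averaged 434.7 ± 10.3 CPM with E419Q, 412.0 ± 11.3 CPM with WT and 143.0 ± 9.77 CPM with the empty vector (SD, n = 2 each). Units are those of the normalised signal deposited for BICR31, and CPM are counts scaled to the library's total in the usual way. All 6 squamous markers looked for (KRT5, KRT14, KRT6A, TP63, DSG3, PKP1) were present in both lines. Their summed level, most of it KRT5, was 56925 to 59117 units with siKLF5 and 90684 to 93413 units with siNC. DSG3 ran against that sum, at 2787 to 3007 units with siKLF5 and 1600 to 1641 units with siNC. In HCC95 the same sum was 12824 to 13582 CPM with E419Q, 18568 to 19235 CPM with WT and 16016 to 16491 CPM with the empty vector. KRT6A ran against the higher sum with WT, at 475.7 to 495.4 CPM with WT and 740.7 to 779.1 CPM with the empty vector. Against the lower sum with E419Q, TP63 had 475.3 to 550.1 CPM with E419Q and 350.8 to 385.2 CPM with the empty vector, PKP1 had 825.6 to 962.3 CPM with E419Q and 544.8 to 568.1 CPM with the empty vector, and KRT14 had 122.2 to 147.9 CPM with E419Q and 91.24 to 104.1 CPM with the empty vector. Of the markers of other cells, CD3E was at 0 in both lines and SFTPB at 0 in BICR31, and the immune, alveolar and fibroblast sums reached at most 45.17 units in BICR31 and 6.51 CPM in HCC95. VWF, the endothelial marker that could be matched, had 116.7 to 205.4 units with siKLF5 and 45.17 to 82.07 units with siNC. It had 26.02 to 28.23 CPM with E419Q, 12.27 to 15.92 CPM with WT and 10.55 to 13.02 CPM with the empty vector. The part of these marker levels in the results on the members was not tested. In bulk RNA, fewer cells of a kind and less mRNA per cell cannot be told apart. Nothing in the labels says that the libraries of a group are separate cultures, so the p-values weigh differences against library spread that could be technical.

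Promoter windows from RefSeq (GRCh38.p14, 250 bases before to 50 after the gene's start) could be matched for 67 of the 76 symbols. Upstream bases are printed for MRPL17, whose mRNA fell most with siKLF5, and for MRPL3, MRPS12 and MRPS2, whose mRNAs were called lower with siKLF5, with WT and with E419Q. They run 5′ to 3′ on the gene's strand, from 250 bases before the start to the start, at chr11:6683341-6683590 (minus strand), chr3:131502972-131503221 (minus strand), chr19:38930694-38930943 (plus strand) and chr9:135500432-135500681 (plus strand), in the order below. Capitals mark matches to the motifs searched on both strands.
MRPL17: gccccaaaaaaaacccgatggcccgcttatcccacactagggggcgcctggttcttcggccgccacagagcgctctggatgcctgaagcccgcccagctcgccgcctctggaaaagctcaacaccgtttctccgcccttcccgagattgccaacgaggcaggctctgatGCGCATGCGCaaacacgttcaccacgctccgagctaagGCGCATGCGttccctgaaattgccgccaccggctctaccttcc
MRPL3: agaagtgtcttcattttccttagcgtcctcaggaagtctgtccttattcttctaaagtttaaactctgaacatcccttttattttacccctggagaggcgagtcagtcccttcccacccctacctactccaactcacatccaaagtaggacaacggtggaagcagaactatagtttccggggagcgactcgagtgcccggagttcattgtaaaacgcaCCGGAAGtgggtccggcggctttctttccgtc
MRPS12: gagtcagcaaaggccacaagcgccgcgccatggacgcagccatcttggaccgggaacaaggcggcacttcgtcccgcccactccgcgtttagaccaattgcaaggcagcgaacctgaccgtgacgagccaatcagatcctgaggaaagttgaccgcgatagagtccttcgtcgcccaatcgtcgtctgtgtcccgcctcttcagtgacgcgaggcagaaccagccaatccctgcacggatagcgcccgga
MRPS2: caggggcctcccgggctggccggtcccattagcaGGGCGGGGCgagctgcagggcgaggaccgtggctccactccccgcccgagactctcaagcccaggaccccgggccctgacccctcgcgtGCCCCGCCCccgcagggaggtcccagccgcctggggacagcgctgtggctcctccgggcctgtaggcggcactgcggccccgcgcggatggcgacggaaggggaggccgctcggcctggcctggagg
The motifs were GCGCANGCG for NRF1, CCGGAAG for ETS factors and GGGNGGGGC for the GC box read by KLF and SP factors. MRPL17 held NRF1 matches at 81 to 73, 80 to 72 and 43 to 35 bases before the start, the first 2 of which overlap on opposite strands. MRPL3 held an ETS match at 32 to 26 bases before the start. MRPS2 held KLF matches at 216 to 208 and at 127 to 119 bases before the start. In MRPS12 no match lay wholly in the bases printed, and the window's 1 ETS match ended after the start. The window of MRPS25, whose mRNA had the next largest fall with siKLF5 after MRPL17, held no match and is not printed. Over the whole windows, 28 of 67 members held the ETS motif (41.8%), against 10.7% of all 27305 promoters in the table. NRF1 matches were in 12 members (17.9%), against 8.05% of all promoters, and KLF matches in 15 members (22.4%), against 20.4% of all promoters. A match is only a stretch of letters and does not show binding.

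Levels of the members were compared with each other per length, as TPM in HCC95 and as units per kilobase in BICR31. MRPL51, a mitochondria-specific protein of the large subunit, had the highest level in both lines. It stood at 398.5 ± 6.58 TPM with E419Q, 361.6 ± 7.79 TPM with WT and 355.9 ± 37.6 TPM with the empty vector. In BICR31 it stood at 4918 ± 362 units per kilobase with siKLF5 and 5730 ± 216 with siNC. Next in HCC95 came MRPS24 and MRPL12, at means of 198.1 and 193.3 TPM over the 6 libraries, which did not differ beyond their spread. MRPS24 is the counterpart of a bacterial small-subunit protein at the mRNA entry, and MRPL12 forms the stalk that recruits translation factors. In BICR31 MRPL21 and MRPL20 followed, at means of 3546 and 3107 units per kilobase. Both have bacterial counterparts in the large subunit. The 3 lowest IDs in both lines were both IDs of MRPL30 and the MRPS17 ID ENSG00000249773.3, described further on. The median was 68.4 TPM over the 78 members in HCC95 and 955.5 units per kilobase in BICR31, and the order of the members was similar in the 2 lines (Spearman rho 0.78 across 78 genes, which are not independent replicates). Summed per length, large-subunit mRNAs were 2.34 to 2.37 times the small-subunit mRNAs with siKLF5 and 2.26 to 2.38 times with siNC, so these groups overlapped. In HCC95 the ratio was 1.87 to 1.89 with E419Q, 1.82 to 1.90 with WT and 1.79 to 1.86 with the empty vector.

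With KLF5 silenced in BICR31, mRNA fell for 21 of the 77 members tested and rose for 2. A call is an adjusted p under 0.05 from limma, with Benjamini-Hochberg adjustment over the 15710 genes tested. Of all those genes, 10.8% fell and 15.3% rose, while 27.3% of the members fell and 2.6% rose. In a fit of the 11247 genes averaging at least 100 units, 1810 fell and 2466 rose, larger shares than over all genes tested. The part of expression level in the contrast between members and all genes was not tested. With quantile-normalised signal 2129 of all genes fell and 2005 rose, where the deposited signal gave 1693 falls and 2404 rises, and 29 members fell and 1 rose. The median log2 fold change, siKLF5 over siNC, was -0.22 over the members and 0.04 over all genes tested. Below 0 lay 60 of the 77 members (77.9%), against 46.8% of all genes. By symbol, 12 of 47 large-subunit members fell and 2 rose, with a median of -0.20, and 9 of 30 small-subunit members fell, with a median of -0.25. No small-subunit member rose by limma, and at an unadjusted p under 0.05 there were 0 rises and 15 falls among them. At that unadjusted level 2413 of all 15710 genes fell and 3297 rose. With MRPS30 and MRPS18A counted in the large subunit and MRPS36 left out, the medians were -0.16 over 49 large-subunit members and -0.26 over 27 small-subunit members. The difference between subunits was not tested. Together the members took 0.398%, 0.385% and 0.4% of the counts in the siKLF5 libraries, and 0.468%, 0.471% and 0.479% in the siNC libraries. In this share every siKLF5 library lay below every siNC library. For single genes, all siKLF5 libraries lay below all siNC libraries in 17.5% of all genes tested and in 45.5% of the members. This held for 98.1% of all genes called lower, so groups that do not overlap add little to a call. Which members fell depended on the fit: 9 calls, those of MRPL3, MRPL11, MRPL12, MRPL16, MRPL17, MRPL37, MRPS18B, MRPS25 and MRPS27, held when any single library was left out. Only 8 members fell in limma without a mean-variance trend, where falls over all 15710 genes also dropped, to 861. Without siKLF5 replicate B 12 members fell, beside 1372 of 15730 genes.

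**Figure D1:**
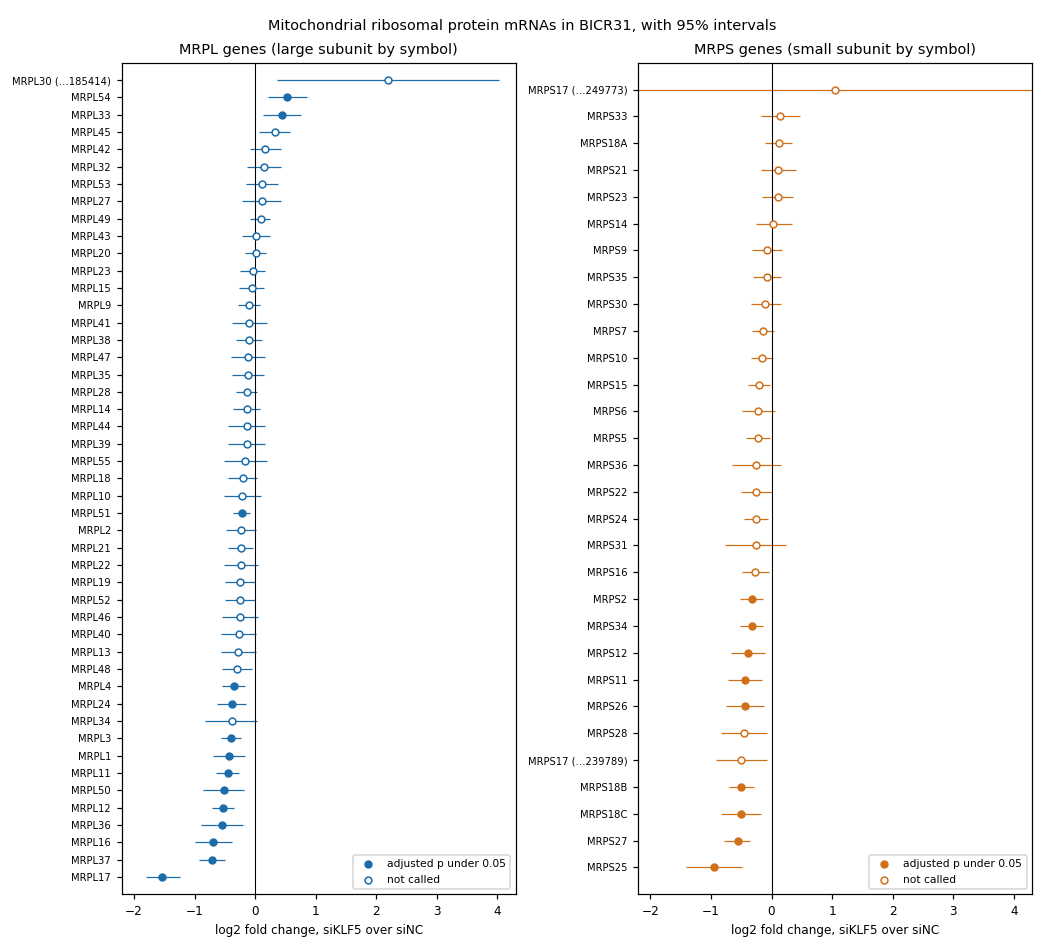
Log2 fold changes (siKLF5 over siNC, x axis) of the 77 members tested in BICR31, with 95% intervals, MRPL genes on the left and MRPS genes on the right; filled points have an adjusted p under 0.05. Most points lie left of 0, MRPL17 lies farthest left at -1.53, and MRPL54 and MRPL33 are the filled points on the right.

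MRPL17, the counterpart of a bacterial protein beside the polypeptide exit tunnel, fell most. It had 394.4, 450.0 and 582.7 units in the siKLF5 libraries, against 1345, 1386 and 1328 units in the siNC libraries. The highest siKLF5 library was thus far under the lowest siNC library. Its fitted level was 34.7% of the control (log2 fold change -1.53, SE 0.135, limma adjusted p = 2.67e-07). It shares no exon with another gene in GENCODE 29 and no pseudogene of its symbol is listed. MRPL4, whose bacterial counterpart lines the same tunnel, averaged 1277 ± 104 units with siKLF5 and 1632 ± 116 units with siNC (log2 fold change -0.35, limma adjusted p = 0.00958). MRPL24, also near the tunnel's exit, averaged 697.5 ± 24.7 units with siKLF5 and 914.3 ± 71.8 units with siNC (log2 fold change -0.39, limma adjusted p = 0.0171). MRPL4 was not called without siKLF5 replicate B (adjusted p = 0.0538) or siNC replicate A (0.0517), and MRPL24 not without siKLF5 replicate C (0.0595) or siNC replicate B (0.0781).

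Of members known from places near the peptidyl transferase centre or at the factor-binding stalk, MRPL16, MRPL3, MRPL12 and MRPL11 had lower mRNA with siKLF5. Others were not called and are named after their values were seen, MRPL10 of the stalk (log2 fold change -0.21, limma adjusted p = 0.306), and MRPL2 (-0.23, 0.164) and MRPL27 (0.11, 0.644) near that centre. MRPL16, the counterpart of a bacterial protein near the tRNA binding sites, had 361.5, 466.7 and 401.6 units with siKLF5, against 663.6, 629.2 and 677.5 units with siNC. The groups did not overlap, and the log2 fold change was -0.69 (SE 0.143, adjusted p = 0.00167 by limma). MRPL3, which reaches towards the catalytic centre, had 2309, 2408 and 2409 units with siKLF5, against 2982, 2973 and 3505 units with siNC. All 3 siKLF5 libraries lay below those of siNC, and the log2 fold change was -0.40 (SE 0.0759, adjusted p = 0.000677 by limma, or 0.0529 in limma without a trend). MRPL12, the stalk protein, which also binds the mitochondrial RNA polymerase, had 1222, 1175 and 1236 units with siKLF5, against 1664, 1787 and 1816 units with siNC. These groups were well apart, with a log2 fold change of -0.53 (SE 0.0855, adjusted p = 0.00016 by limma). MRPL11, at the base of the stalk, had 1553, 1292 and 1362 units with siKLF5, against 1791, 1997 and 1951 units with siNC. It too was lower in each siKLF5 library, with a log2 fold change of -0.45 (SE 0.091, adjusted p = 0.00128 by limma).

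Among large-subunit proteins specific to mitochondria, MRPL37 fell most. It had 1372, 1242 and 1661 units in the siKLF5 libraries, against 2209, 2371 and 2385 units in the siNC libraries. No siKLF5 library came near the siNC range, and the log2 fold change was -0.71 (SE 0.0986, adjusted p = 3.72e-05 by limma). MRPL50, of the same class, averaged 420.8 ± 29.3 units with siKLF5 and 611.4 ± 120.1 units with siNC (log2 fold change -0.52, limma adjusted p = 0.0247). MRPL36, the counterpart of a very small bacterial protein, averaged 582.4 ± 56.9 units with siKLF5 and 866.1 ± 230.6 units with siNC (log2 fold change -0.54, limma adjusted p = 0.0207). MRPL36 was uneven in siNC, at 1109, 838.9 and 650.4 units. Each of these last 2 calls was lost on leaving out any of 4 libraries, siKLF5 replicates B and C and siNC replicate B for both, siNC replicate A for MRPL36 and siNC replicate C for MRPL50 (adjusted p 0.0572 to 0.129). The remaining large-subunit falls were those of MRPL1, a protein of the flexible stalk at the tRNA exit, with a log2 fold change of -0.43, and of MRPL51, with -0.22.

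MRPL54 and MRPL33 went the other way. MRPL54, a mitochondria-specific protein, had 550.5, 491.7 and 496.1 units with siKLF5, against 336.4, 373.9 and 352.3 units with siNC. All siKLF5 libraries were above all siNC libraries, with a log2 fold change of 0.53 (SE 0.150, adjusted p = 0.0137 by limma, and 0.0625 without siKLF5 replicate A). MRPL33, the counterpart of a small bacterial protein, had 509.4, 541.7 and 511.8 units with siKLF5, against 381.8, 419.5 and 352.3 units with siNC. The groups did not overlap, with a log2 fold change of 0.44 (SE 0.147, adjusted p = 0.0357 by limma). The call of MRPL33 was lost without any library but siNC replicate B (adjusted p 0.0691 to 0.106) and under 3 other scalings (0.0544 to 0.0646). Its exons overlap those of BABAM2 on the same strand.

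In the small subunit MRPS25, a mitochondria-specific protein, fell most. It had 213.6, 175.0 and 338.6 units with siKLF5, against 457.7, 419.5 and 478.8 units with siNC. The siKLF5 library C was closest to the controls but still below them, and the log2 fold change was -0.95 (SE 0.219, adjusted p = 0.0036 by limma, or 0.0735 without a trend). MRPS27, a pentatricopeptide-repeat protein, had 1052, 900.0 and 937.0 units with siKLF5, against 1473, 1313 and 1481 units with siNC. No library of siKLF5 reached the siNC range, and the log2 fold change was -0.56 (SE 0.101, adjusted p = 0.000445 by limma). MRPS12, the counterpart of the bacterial protein of the decoding centre, had 488.5, 443.1 and 459.5 units with siKLF5, against 628.9, 561.3 and 630.5 units with siNC. The groups stood apart by a smaller margin, with a log2 fold change of -0.39 (SE 0.135, adjusted p = 0.0442 by limma). This call of MRPS12 was lost without any library but siNC replicate B (adjusted p 0.0618 to 0.117) and without a filter on low values (0.0509). MRPS2, the counterpart of a bacterial protein on the solvent side of the small subunit, had 1487, 1625 and 1315 units with siKLF5, against 1873, 1796 and 1870 units with siNC. It was lower in each siKLF5 library, with a log2 fold change of -0.33 (SE 0.0904, adjusted p = 0.0121 by limma, and 0.0733 without siKLF5 replicate C). MRPS26 (log2 fold change -0.44), MRPS11 (-0.43) and MRPS34 (-0.33) were also called lower.

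MRPS18A, MRPS18B and MRPS18C are paralogs of a single bacterial protein. MRPS18B had 1109, 1317 and 1386 units with siKLF5, against 1855, 1623 and 1897 units with siNC. These groups did not overlap (log2 fold change -0.50, SE 0.101, limma adjusted p = 0.00128, or 0.0582 without a trend). MRPS18C had 336.9, 332.0 and 433.1 units with siKLF5, against 498.8, 552.6 and 504.9 units with siNC. It was lower in each siKLF5 library (log2 fold change -0.51, SE 0.158, limma adjusted p = 0.0253), and the call was lost without either siKLF5 replicate A or B or siNC replicate B or C (0.0546 to 0.0919). MRPS18A, the paralog built into the large subunit, had 1141, 1107 and 1268 units with siKLF5, against 1153, 993.9 and 1092 units with siNC. Its groups overlapped, with a log2 fold change of 0.12 (SE 0.102, adjusted p = 0.437 by limma). Differences between the paralogs were not tested.

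**Figure D2:**
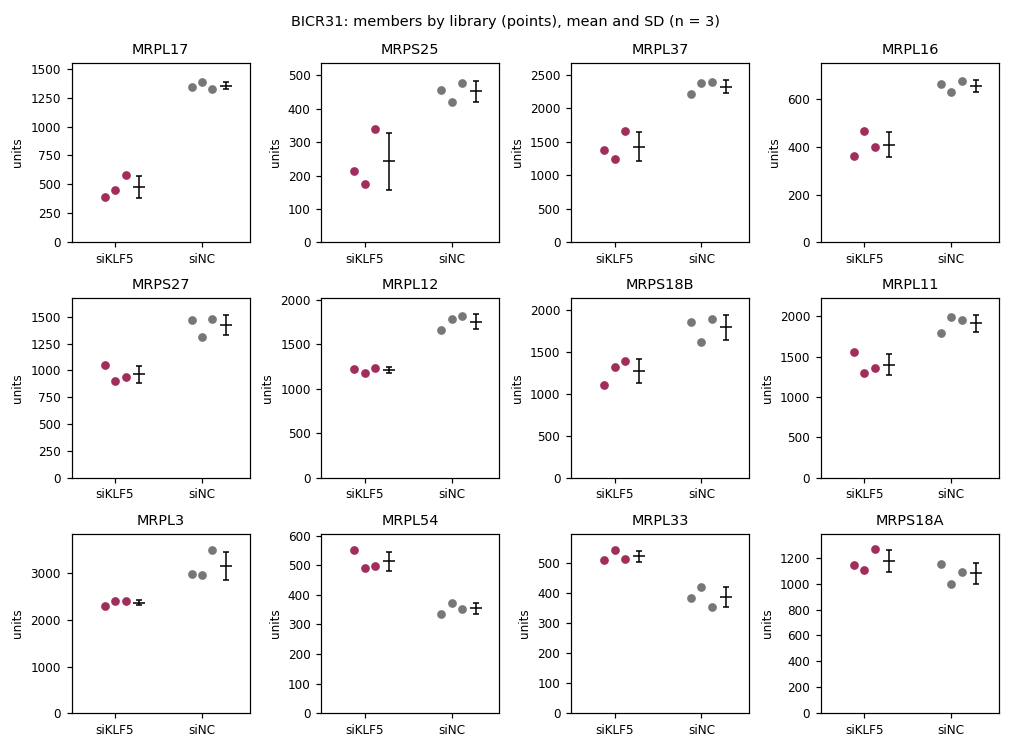
Signal in units (y axis, from 0) of 12 members in each siKLF5 library (left in each panel) and each siNC library (right), with the mean and SD of 3 libraries beside the points. The groups do not overlap in the first 11 panels, 9 of them lower with siKLF5 and MRPL54 and MRPL33 higher; MRPS18A, in the last panel, overlaps. Of all genes called lower with siKLF5, 98.1% had groups that did not overlap.

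Of the promoters of the 21 members that fell with siKLF5, 3 held the KLF motif (14.3%), as did 12 of the other 46 members (26.1%). The ETS motif was in 7 of the 21 (33.3%) and in 21 of the other 46 (45.7%), and the NRF1 motif in 4 (19.0%) and 8 (17.4%).

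Overexpression of KLF5 WT in HCC95 was followed by lower mRNA of 12 of 76 members tested and by higher mRNA of none. Calls in HCC95 come from edgeR's quasi-likelihood test, adjusted over 12933 genes, at the same threshold. Of all those genes 12.1% fell and 10.8% rose, so the 15.8% of members that fell was close to the background. At an unadjusted p under 0.05 edgeR gave 20 members, all of them lower with WT. Of all 12933 genes, edgeR gave 2296 lower and 2203 higher at that unadjusted level. DESeq2 and limma-voom also called no rise among the members. Over all genes DESeq2 called few, 538 lower and 413 higher of 23559, and limma-voom called 1565 lower and 1414 higher of 12933. The median log2 fold change, WT over empty vector, was -0.07 over the members and 0.00 over all genes tested. By symbol, 7 of 47 large-subunit members fell, with a median of -0.06, and 5 of 29 small-subunit members fell, with a median of -0.12. By structure the medians were -0.08 and -0.09. Without WT replicate B the small-subunit median was -0.02 and the large-subunit median -0.05, so their order turned, and without empty-vector replicate A they were -0.05 and -0.06. Together the members took 0.374% and 0.375% of the counts with WT, and 0.405% in both empty-vector libraries. All 12 members called had groups that did not overlap, as did 99.9% of all genes called lower with WT. Both WT libraries lay below both empty-vector libraries for 29.1% of all genes tested and for 38.2% of the members. DESeq2 called 2 of them, MRPS2 and MRPL3, and these were also the calls that held without any single library.

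MRPS2 had 63.7 and 63.6 CPM in the WT libraries, against 93.2 and 95 CPM in the empty-vector libraries. The WT libraries lay close together and well below, with a log2 fold change of -0.58 (SE 0.0924, edgeR adjusted p = 8.4e-05). MRPL3 had 83.6 and 83.7 CPM with WT, against 119.5 and 115.5 CPM with the empty vector. It was lower in both WT libraries, with a log2 fold change of -0.50 (SE 0.0841, edgeR adjusted p = 0.000142). MRPS12 had 58.3 and 65.4 CPM with WT, against 81.0 and 85.7 CPM with the empty vector. Its groups did not overlap either, with a log2 fold change of -0.44 (SE 0.100, edgeR adjusted p = 0.00257, and 0.0536 without WT replicate A). MRPS30, a large-subunit protein despite its symbol, had 58.6 and 69.1 CPM with WT, against 82.5 and 83.6 CPM with the empty vector. Its 2 WT libraries were further apart from each other than those of the empty vector, and the log2 fold change was -0.39 (SE 0.101, edgeR adjusted p = 0.00787, and 0.137 without WT replicate A). MRPL37 averaged 86.1 ± 7.54 CPM with WT and 106.2 ± 0.900 CPM with the empty vector (log2 fold change -0.31, edgeR adjusted p = 0.0137, and 0.172 without WT replicate A).

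The other members called lower with WT ranged in log2 fold change from -0.37 to -0.30. They were the mitochondria-specific MRPL42 (-0.37), MRPS35 (-0.37) and MRPL38 (-0.36), and MRPL47 (-0.36), MRPL21 (-0.36), MRPL20 (-0.32) and MRPS15 (-0.30), which have bacterial counterparts. Without WT replicate A the calls of MRPL20, MRPL21, MRPL38, MRPL42, MRPS15 and MRPS35 were lost (adjusted p 0.0568 to 0.238). Without WT replicate B those of MRPL20, MRPL21, MRPL42, MRPL47 and MRPS15 were lost (0.0595 to 0.173). Leaving out an empty-vector library ended the calls of MRPL20 (0.053 without replicate A, 0.0976 without B), MRPL42 (0.0653, 0.139), MRPS15 (0.189 without A) and MRPL38 (0.0909 without B).

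Overexpression of KLF5 E419Q was followed by lower mRNA of 8 of the 76 members and higher mRNA of 2. This is 10.5% and 2.63% of the members, beside 10.8% of all genes that fell and 10.4% that rose, so the share that fell was near the background. The median log2 fold change, E419Q over empty vector, was -0.04 over the members. In the large subunit 4 of 47 fell and 2 rose, and in the small subunit 4 of 29 fell. Both E419Q libraries lay below both empty-vector libraries for 26.4% of all genes tested and for 30.3% of the members. This held for 99.6% of all genes called lower with E419Q. The members took 0.389% and 0.391% of the counts with E419Q, against 0.405% in both empty-vector libraries, which served as controls for both overexpressed forms. MRPS2 had 69.9 and 64.8 CPM with E419Q, against 93.2 and 95 CPM with the empty vector. Both E419Q libraries were lower, with a log2 fold change of -0.51 (SE 0.0941, edgeR adjusted p = 0.000337), the 1 call that held without any single library and in DESeq2. MRPS12 had 65.4 and 57.1 CPM with E419Q, against 81.0 and 85.7 CPM with the empty vector. Its groups did not overlap, with a log2 fold change of -0.48 (SE 0.104, edgeR adjusted p = 0.00161, and 0.0622 without E419Q replicate B). MRPL3 had 95.6 and 97.2 CPM with E419Q, against 119.5 and 115.5 CPM with the empty vector. It was lower in both E419Q libraries, with a log2 fold change of -0.31 (SE 0.0843, edgeR adjusted p = 0.00973). The call of MRPL3 was lost without E419Q replicate A (0.0719) or B (0.0638).

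MRPS30 had 66.7 and 59.4 CPM with E419Q, against 82.5 and 83.6 CPM with the empty vector, and fell by 0.43 on the log2 scale (edgeR adjusted p = 0.00455, and 0.103 without E419Q replicate B). MRPS15 (-0.42), the mitochondria-specific MRPL41 (-0.45) and MRPL52 (-0.42), and MRPL20 (-0.30) were the other members called lower. MRPL52 was called although its libraries overlapped, at 43.6 and 29.4 CPM with E419Q and 43.4 and 51.0 CPM with the empty vector. The calls of MRPL20, MRPL41, MRPL52 and MRPS15 were lost on leaving out E419Q replicate A (MRPL20, MRPL41 and MRPS15, 0.0561 to 0.127) or B (MRPL20, MRPL41 and MRPL52, 0.168 to 0.588), empty-vector replicate A (MRPL20, 0.0773) or B (MRPL20, MRPL41 and MRPL52, 0.135 to 0.300). MRPL11, the stalk-base protein, had 75.8 and 70.4 CPM with E419Q, against 56.1 and 60.5 CPM with the empty vector. Both E419Q libraries were above both controls, with a log2 fold change of 0.29 (SE 0.101, edgeR adjusted p = 0.046). The call of MRPL11 was lost without any of these 4 libraries (0.0726 to 0.250).

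**Figure D3:**
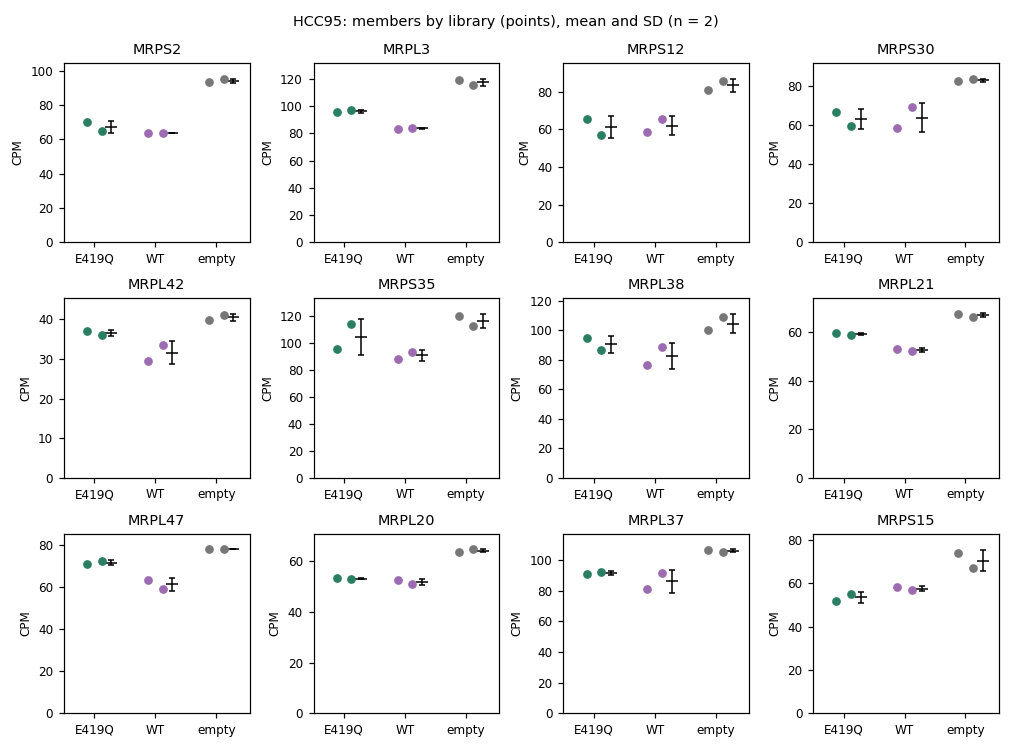
CPM (y axis, from 0) of 12 members in each HCC95 library, with E419Q, WT and empty vector from left to right and the mean and SD of 2 libraries beside the points. These are the 12 members called lower with WT, each with both WT libraries under both empty-vector libraries; the E419Q libraries lie under the empty-vector libraries too, except in MRPS35, where they overlap.

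Between E419Q and WT no member was called, where 8.00% of all genes were called in either direction. By edgeR 6 members had an unadjusted p under 0.05, 4 of them higher with E419Q. Of all 12933 genes, 2460 had such a p by edgeR, 1272 of them higher with E419Q. DESeq2 called 0 members, and of 23559 genes it called 171 lower and 211 higher with E419Q. The median log2 fold change, E419Q over WT, was 0.04 over the members. MRPL32, a large-subunit protein with a bacterial counterpart, is named here after its values were seen. It had 39.4 and 47.8 CPM with E419Q, against 34.4 and 30.8 CPM with WT. Its groups did not overlap, and the log2 fold change was 0.41 (95% interval 0.12 to 0.70, edgeR adjusted p = 0.0766). Both E419Q libraries lay above both WT libraries for 27.1% of all genes tested and for 31.6% of the members. MRPS18C had 17.4 and 19.3 CPM with E419Q, against 13.4 and 12.5 CPM with WT. This difference of 0.50 on the log2 scale (95% interval 0.10 to 0.90) also missed the threshold (edgeR adjusted p = 0.140). MRPL3 averaged 96.4 ± 1.09 CPM with E419Q and 83.6 ± 0.0434 CPM with WT, a log2 fold change of 0.19 (95% interval 0.00 to 0.37, edgeR adjusted p = 0.257). MRPS2 and MRPS12 are given above for both forms. A p that misses the threshold does not show that the 2 forms act alike on these genes.

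Across the lines, 4 members fell both with siKLF5 in BICR31 and with WT in HCC95: MRPL3, MRPL37, MRPS12 and MRPS2. They make up 19.0% of the 21 that fell with siKLF5 and 33.3% of the 12 that fell with WT. They are 5.26% of the 76 members tested in both lines, where 2.65% of the 12432 genes tested in both fell in both comparisons. Since 27.3% of the members fell with siKLF5 and 15.8% with WT, nothing particular to the members is read from this count. With E419Q the shared falls were those of MRPL3, MRPS12 and MRPS2, 14.3% of the 21 and 37.5% of the 8 that fell with E419Q, or 3.95% of the 76, beside 2.65% of all genes. These 3 were thus lower both where KLF5 was silenced and where it was overexpressed, against different controls in different lines, as were 1.88% of all genes. Among the 3, the siKLF5 call of MRPS12 is the one that was lost without most single libraries. MRPL11 was called lower with siKLF5 and higher with E419Q. Since no member was called higher with WT, none could be called both lower with siKLF5 and higher with WT. MRPL17, far below its control with siKLF5, had 48.1 and 50.8 CPM with WT and 62.2 and 58.4 CPM with the empty vector, a log2 fold change of -0.29 that missed the threshold (SE 0.106, edgeR adjusted p = 0.0521). MRPS25 had 43.2 and 44.6 CPM with WT and 40.5 and 39.6 CPM with the empty vector, a log2 fold change of 0.12 (SE 0.114, edgeR adjusted p = 0.483). Of the 76 members tested in both lines, 60 had log2 fold changes below 0 with siKLF5, 45 with WT and 38 with both. The share of all genes below 0 in both was not counted, and nothing particular to the members is read from the 38. In none of the 4 comparisons were 43 of the members tested called, among them an MRPS17 ID tested in BICR31 only. The same count over all genes was not made.

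**Figure D4:**
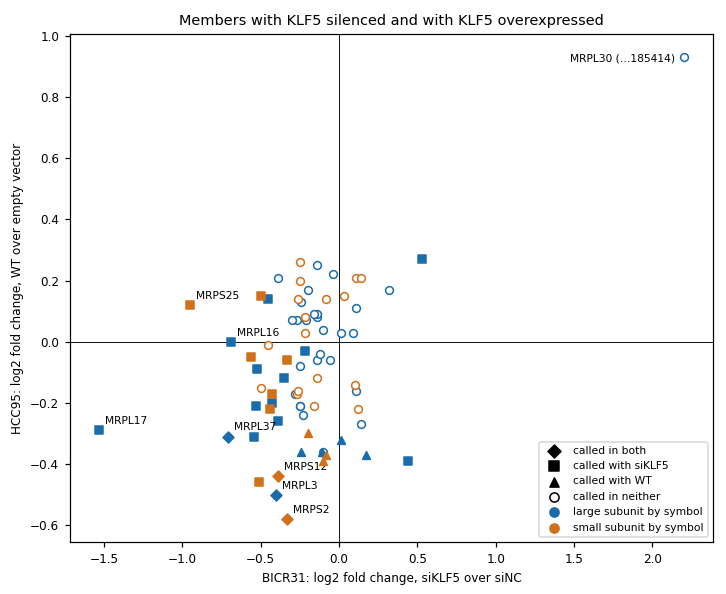
Log2 fold changes of the 76 members tested in both lines, siKLF5 over siNC in BICR31 (x axis) against WT over empty vector in HCC95 (y axis), with blue for the large and orange for the small subunit by symbol. MRPL3, MRPL37, MRPS12 and MRPS2, called in both, lie in the lower left; MRPL30 at the upper right was called in neither.

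Exons of 29 members overlap a gene on the opposite strand in GENCODE 29, among them MRPS25 with NR2C2, MRPS12 with SARS2, MRPS2 with C9orf116, MRPL37 with CYB5RL and SSBP3, MRPS27 with PTCD2 and MRPL11 with PELI3. No source used here says whether counting used strand, so reads of such pairs may have been mixed. Exons of 18 members overlap a gene on the same strand, where counting by strand would not separate the reads. Among them are MRPL12 with AC139530.2, MRPL20 with RN7SL657P, MRPL38 with AC087289.3 and MRPL42 with RN7SL737P. MRPL3, MRPL16, MRPL54, MRPS18B and MRPS30 have no overlap on either strand. Pseudogenes bearing a member's symbol were listed for 33 members. Of MRPL3 they had 0.055% of the member's units in BICR31. Those of MRPS31 were higher, at 18.6% of the member's units in BICR31 and 27.0% of its CPM in HCC95, so MRPS31 is uncertain. So are MRPS17 under ENSG00000249773.3, where they stood at 20% in BICR31 and 22.6% in HCC95, and MRPL45, at 10.8% in BICR31.

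MRPL30 and MRPS17 are split over 2 IDs each. MRPL30 under ENSG00000185414.15, the counterpart of a bacterial large-subunit protein, was uneven within groups. It had 61.63, 766.7 and 127.2 units with siKLF5, against 20.91, 13.13 and 206.1 units with siNC, and these overlapped (log2 fold change 2.2, SE 0.867, limma adjusted p = 0.0742). In HCC95 it had 2.36 and 30.9 CPM with E419Q, 6.95 and 2.44 CPM with WT and 3.07 and 1.79 CPM with the empty vector. It was the second member called higher with E419Q over the empty vector (log2 fold change 2.80, SE 0.690, edgeR adjusted p = 0.00497), and this rested on replicate B, without which the log2 fold change was -0.08 (adjusted p = 0.966). The other MRPL30 ID, ENSG00000273155.1, failed the filter on low values in both lines. It was at 0 in all BICR31, E419Q and WT libraries and at 0.59 and 1.19 CPM with the empty vector. MRPS17 under ENSG00000239789.1, the counterpart of a bacterial small-subunit protein, had 211.0, 209.8 and 291.3 units with siKLF5, against 358.6, 313.4 and 325.2 units with siNC. Its groups did not overlap, and the log2 fold change of -0.50 missed the threshold (SE 0.199, limma adjusted p = 0.0771). The other MRPS17 ID, ENSG00000249773.3, failed the filter in HCC95, at 0 to 1.96 CPM. In BICR31 it was tested at 31.72, 69.42 and 0 units with siKLF5, against 14.27, 16.41 and 0 units with siNC (limma adjusted p = 0.710). MRPS36, the dehydrogenase component, averaged 298.8 ± 21.0 units with siKLF5 and 360.2 ± 82.6 units with siNC (limma adjusted p = 0.387) and was called in no HCC95 comparison.

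Genes that work with the mitoribosome were counted in the same fits. Of all genes tested, 10.8% fell and 15.3% rose with siKLF5, and 12.1% fell and 10.8% rose with WT. With E419Q 10.8% of all genes fell and 10.4% rose. Of the subunits with other names, 2 of 7 fell with siKLF5, GADD45GIP1 (log2 fold change -0.33) and MRP63 (-0.43), and AURKAIP1 fell with WT (-0.40) and with E419Q (-0.30). Assembly factors gave 6 falls and 1 rise of 24 with siKLF5. ERAL1, a chaperone of the small-subunit RNA, fell to 1044 ± 142 units with siKLF5, against 1480 ± 86 units with siNC (limma adjusted p = 0.00171). RPUSD3, a pseudouridine synthase-like protein, had a log2 fold change of -0.35. NGRN, a partner of the large-subunit RNA, rose to 2611 ± 64 units with siKLF5, against 1608 ± 84 units with siNC (log2 fold change 0.70, limma adjusted p = 2.63e-06). NGRN fell to 144.9 ± 13.5 CPM with E419Q and 146.7 ± 3.20 CPM with WT, against 189.6 ± 10.8 CPM with the empty vector (log2 fold changes -0.42 and -0.38, edgeR adjusted p = 0.000476 and 0.000906). With WT 1 assembly factor rose, YBEY, an RNase-like protein, and 2 fell (8.33%), and with E419Q 1 rose and 3 fell (12.5%). Translation factors and mRNA-binding partners gave 5 falls of 16 with siKLF5 (31.2%), 3 with WT (18.8%) and 2 with E419Q (12.5%). SLIRP, which stabilises mitochondrial mRNAs, averaged 878.9 ± 137.0 units with siKLF5 and 1323 ± 71 units with siNC (log2 fold change -0.60, limma adjusted p = 0.000898). It fell with WT as well, at 29.6 ± 1.68 CPM with WT and 43.5 ± 2.05 CPM with the empty vector (log2 fold change -0.57, edgeR adjusted p = 0.00195). GFM1, an elongation factor, fell with WT (-0.36) and E419Q (-0.39). The mitochondrial aminoacyl-tRNA synthetases gave 5 falls and 1 rise of 20 with siKLF5, led by CARS2 (-0.61), YARS2 (-0.63) and NARS2 (-0.48), 1 fall with WT (MARS2, -0.78) and no call with E419Q, where 5 had an unadjusted p under 0.05.

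Of 14 import genes, 8 fell and 1 rose with siKLF5, 7 fell and 1 rose with WT, and 6 fell and 1 rose with E419Q. These falls are 57.1%, 50% and 42.9% of the list, beside 10.8%, 12.1% and 10.8% of all genes. HSPD1, the matrix chaperonin, averaged 7981 ± 397 units with siKLF5 and 11034 ± 392 units with siNC (log2 fold change -0.47, limma adjusted p = 1.85e-06). It averaged 518.4 ± 26.3 CPM with WT and 629.6 ± 4.68 CPM with the empty vector (-0.29, edgeR adjusted p = 0.000685). TOMM40, the outer-membrane channel, fell with WT (-0.51) and with E419Q (-0.48), and TOMM20, an import receptor, rose with siKLF5 (0.44). Of regulators, MYC fell with siKLF5 (-0.49, limma adjusted p = 8.27e-05) and with E419Q over the empty vector (-0.37, edgeR adjusted p = 3.37e-04), and PPRC1, a coactivator of the PGC-1 family, fell with siKLF5 (-0.38) and with WT (-0.33). NFE2L2 rose with WT (0.54) and with E419Q (0.30). GABPA, the DNA-binding subunit of GABP, rose with WT (0.47, edgeR adjusted p = 0.0201), at 35.3 ± 0.0412 CPM with WT and 25.6 ± 4.27 CPM with the empty vector. Between E419Q and WT, MYC (-0.32, edgeR adjusted p = 0.00331) and NFE2L2 (-0.24, edgeR adjusted p = 0.0112) were lower with E419Q. Of the mitochondrial transcription and genome list, 1 of 10 fell with siKLF5 (TFAM, -0.36), 2 with WT (SSBP1, -0.31, and C10orf2, -0.42) and 1 with E419Q (C10orf2, -0.56).

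The templates of the mitoribosome, the complexes its products join and the ribosome of the cytosol were counted too. Of the 13 mRNAs encoded by mitochondrial DNA, 1 fell with siKLF5 (MT-ND4L, -0.68), 2 rose and 1 fell with WT, and 5 rose with E419Q, led by MT-ATP6 (0.25) and MT-ATP8 (0.31). Their share of counts was 1.15% to 1.93% with siKLF5 and 1.56% to 1.84% with siNC, and these overlapped. In HCC95 it was 2.44% to 2.49% with E419Q and 2.35% to 2.44% with WT, against 2.26% in both empty-vector libraries, so both overexpressed forms lay above the empty vector. Nuclear genes of oxidative phosphorylation gave 13 falls and 1 rise of 79 with siKLF5 (16.5% and 1.27%, beside 10.8% and 15.3% of all genes). With WT they gave 3 falls and 10 rises of 76 (3.95% and 13.2%, beside 12.1% and 10.8%). With E419Q they gave 2 falls and 3 rises (2.63% and 3.95%, beside 10.8% and 10.4%). Cytosolic ribosomal proteins gave 36 falls and 2 rises of 81 with siKLF5 (44.4% and 2.47%). They gave 4 falls and 37 rises of 80 with WT (5.0% and 46.2%), and 10 falls and 14 rises with E419Q (12.5% and 17.5%). Their median log2 fold change was -0.13 with siKLF5 and 0.14 with WT, where the members' medians were -0.22 and -0.07. In shares of counts they took 4.19% to 4.48% with siKLF5 and 4.96% to 5.06% with siNC. In HCC95 they took 6.36% to 6.52% with E419Q, 6.79% to 6.87% with WT and 6.07% to 6.38% with the empty vector. Between E419Q and WT 10 of the 80 fell (12.5%, beside 3.59% of all genes), among them RPS9 (-0.24) and RPLP0 (-0.19), while the members gave no call.

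**Figure D5:**
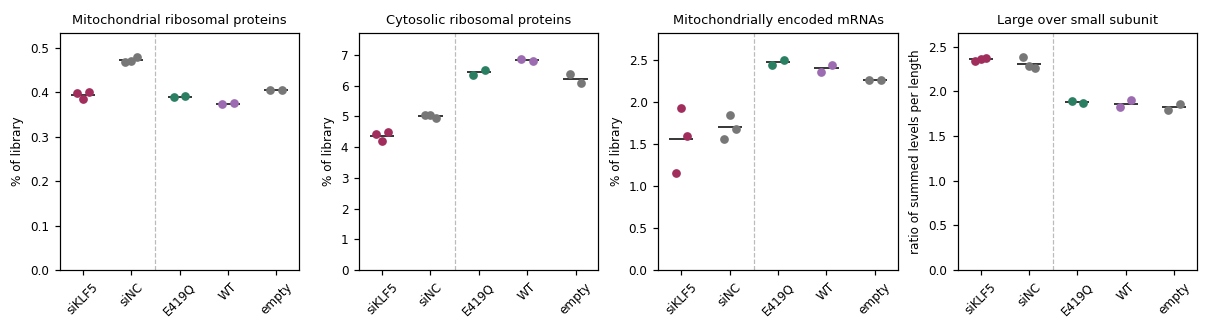
Share of library counts (y axes, percent, from 0) taken by the members, the cytosolic ribosomal proteins and the mitochondrially encoded mRNAs, and the ratio of summed large-subunit to small-subunit levels per length; points are libraries and lines are group means. The members' share is 0.385% to 0.4% with siKLF5 and 0.468% to 0.479% with siNC, and the ratio overlaps between those groups.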

How the data were processed

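Poly(A) RNA of BICR31 (siKLF5, siNC) and HCC95 (E419Q, WT, empty vector) had been made into libraries with NEB kits, per the labels' protocols. Reads were aligned with STAR and counted with RSEM on hg19, and for HCC95 edgeR and limma are also named, per the submitters' processing notes, where versions are lacking. The HCC95 files hold RSEM expected counts and TPM, both as the authors deposited them, per the file headers. The BICR31 files hold a signal that the authors deposited as normalised, and no source used here says how. Every BICR31 value was a multiple of 0.01 of a count worth 7.87 to 9.12 units. Of these recovered values 81.7% to 82.6% were whole within 0.02, and the 75th percentile lay at 983.3 to 992.1 units, as scaling to an upper quartile would leave it. A damaged header line at the top of the BICR31 files was dropped.

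For BICR31, limma was run on log2(signal + 1) for the 15710 genes averaging 10 units or more (limma 3.58.1, empirical Bayes with a trend), so fold changes are on that scale and understate low genes. In HCC95, expected counts were rounded and tested with edgeR 4.0.16 (quasi-likelihood, TMM, filterByExpr, 12933 genes) on the 6 libraries together. All tests were two-sided, and p-values were adjusted by Benjamini-Hochberg with 0.05 as threshold. CPM are counts over the library's total. Of the 78 members, 77 passed the filter in BICR31 and 76 in HCC95. Levels per length used the effective lengths in the HCC95 files. DESeq2 1.42.0, limma-voom, other scalings, filters, pseudocounts and fits without each library were alternatives, and edgeR on the recovered counts was added after the data were seen. Exon overlaps and 76 of the member IDs were looked up in GENCODE 29, which is not of the files' build, so no gene coordinates are given. Promoters came from RefSeq (GRCh38.p14).

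Members named were, for each comparison, up to 10 largest rises and falls called, the 3 highest and lowest per length in a line, members failing the filter, the MRPS18 paralogs, MRPS30, MRPS36 and those called in both lines, and up to 3 genes per other list by smallest adjusted p. The members and lists were chosen with earlier results of these data known. Chi-square values per degree of freedom were 1.22 to 1.88 between replicates and 5.8 to 9.88 between groups, so no pair of libraries was counted as 1. R 4.3.3 and Python 3.11.15 were used.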

Additional observations from a re-analysis of the deposited data

How the results depend on the processing

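With siKLF5 the members that fell numbered 21, and 8 with limma without a trend, where 861 of all 15710 genes fell. They numbered 29 with quantile-normalised signal (2129 of all genes) and 27 with median-of-ratios scaling (2010) or equal totals (2012). With edgeR on the recovered counts they numbered 30, beside 2163 falls and 2261 rises of 11605 genes. Without single libraries 12 to 18 members fell, beside 1313 to 1412 of all genes. Rises numbered 2, 4 at a mean of at least 100 units, 1 with quantile, median-of-ratios or equal-total scaling, and 1 to 2 without single libraries. With WT over the empty vector the falls numbered 12, 2 in DESeq2, and 4 to 12 without single libraries. With E419Q over the empty vector they numbered 8, 1 in DESeq2, and 2 to 8 without single libraries. Of 23559 genes, DESeq2 called 538 lower and 413 higher with WT, and 511 lower and 452 higher with E419Q, both over the empty vector. Rises with E419Q over the empty vector numbered 2, 0 in DESeq2, and 1 without a filter, with the replicate block, with limma-voom and with only the 2 groups compared. Under other alternatives they numbered at most 3. On leaving out each single library 1 member rose, and without E419Q replicate B this was neither MRPL11 nor MRPL30. MRPL30 (ENSG00000185414.15) reversed to -0.08 without E419Q replicate B and stood at 3.66 without replicate A. Between E419Q and WT 1 member was called without a filter and 0 to 1 without single libraries. The causes were not tested.

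Medians of the log2 fold changes moved by more than the spread between libraries as follows. That spread, the SD of library medians within groups, was 0.039 (large) and 0.037 (small) in BICR31 and 0.002 (large) and 0.016 (small) in HCC95. With a spread as small as 0.002, some values listed equal the main ones as printed. Ranges without single libraries are given whole, so they also hold values that did not move. With siKLF5 the large-subunit median was -0.25 quantile-normalised, -0.24 with median-of-ratios or equal-total scaling, -0.16 by structure and -0.21 to -0.14 without single libraries. The small-subunit median was -0.31 quantile-normalised and -0.29 with both other scalings and with edgeR on recovered counts. Without single libraries it stayed within that spread, at -0.27 to -0.24. With WT the large-subunit median was -0.08 without a filter, in DESeq2 and by structure, -0.06 with the replicate block, RLE or only the 2 groups compared, -0.05 with library totals, -0.02 with upper-quartile scaling and -0.07 to -0.05 without single libraries. The small-subunit median was -0.14 without a filter, -0.15 in DESeq2, -0.08 with upper-quartile scaling, -0.09 by structure and -0.12 to -0.02 without single libraries. With E419Q over the empty vector the large-subunit median was -0.06 without a filter, -0.05 in DESeq2, -0.04 with the replicate block or only the 2 groups compared, -0.03 with upper-quartile scaling, -0.01 with library totals and -0.08 to -0.04 without single libraries. The small-subunit median was 0.01 with library totals and -0.07 to -0.02 without single libraries. For E419Q over WT the large-subunit median was 0.02 without a filter or with upper-quartile scaling, 0.06 with library totals, 0.03 in DESeq2, 0.04 in limma-voom and 0.02 to 0.06 without single libraries. The small-subunit median was 0.01 with upper-quartile scaling, 0.05 with library totals and -0.01 to 0.08 without single libraries.

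For single members, 141 of the values without a library kept their call, 84 lost it in the same direction, and 1, that of MRPL30 without E419Q replicate B, lost it with its direction reversed. Of the values under other alternatives, 329 kept it and 54 lost it. Of the siKLF5 calls whose lost libraries are not named above, MRPL1 was lost without siKLF5 replicate C and siNC replicates B and C (adjusted p 0.0698 to 0.104). MRPL51 was lost without siKLF5 replicates A and B and siNC replicates B and C (0.0699 to 0.097), as was MRPS26 (0.0525 to 0.165). MRPS11 was lost without any library but siKLF5 replicate A (0.0534 to 0.114), and MRPS34 without replicate B of either group (0.0544 and 0.0607). Deviations of libraries with the same replicate letter correlated at -0.0761 to 0.072, so no pairing by letter was seen. In HCC95, with 2 libraries per group, A and B give the same value for each pair of groups. A shared day or batch is not excluded by this, and the labels do not say what the letters share. With the letter as a replicate block 20 members fell with siKLF5, 12 with WT and 7 with E419Q over the empty vector. Under this block the calls of MRPS12 with siKLF5 (adjusted p = 0.0554) and of MRPL11 (0.0543) and MRPL52 (0.0613) with E419Q were lost. A median of 92 to 194 counts per member and library limits the precision of single members, and no smallest detectable change was computed.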
